A study of Homo sapiens with 6 samples.

Results

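RSAD2, CMPK2, SAMHD1 and PNPT1 encode antiviral enzymes that act on nucleotides or on RNA. They were chosen by name because all of them had higher mRNA levels in HT29 cells with siALDOA than with siControl in an earlier look at these same libraries. For that reason the difference between siALDOA and siControl is given for them as a description, without a test. They are 4 of the 28278 genes listed per library and 4 of the 15307 genes with enough counts to be fitted. HT29 is an established human colorectal adenocarcinoma cell line of epithelial morphology. One group of 3 biological replicates received a siRNA against ALDOA (siALDOA), the aldolase A gene of glycolysis, and the other group of 3 received a scrambled siRNA (siControl). The labels give the genotype of the former as ALDOA KD and of the latter as WT. Total RNA was taken from both after 48 h. Only this single cell line was used, and no untransfected cells were among the 6 libraries.

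Interferons are secreted signals that make cells transcribe a large set of antiviral genes, and RSAD2, CMPK2, SAMHD1 and PNPT1 are known members of that set. Several of their products starve or poison viral polymerases through the nucleotide pool. CMPK2, a mitochondrial kinase, phosphorylates CMP and UMP and their deoxy forms. RSAD2 (viperin), a radical S-adenosylmethionine enzyme with an iron-sulfur cluster, turns CTP into a chain-terminating analogue. SAMHD1 removes the triphosphate from deoxynucleoside triphosphates and so lowers the supply for reverse transcription. PNPT1 differs from these in working on RNA, as the polynucleotide phosphorylase of mitochondria, which degrades RNA from its 3′ end and limits the double-stranded RNA of that compartment.

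RSAD2 (ENSG00000134321) lies on chromosome 2 of hg38 from 6865557 to 6898239 on the plus strand. CMPK2 (ENSG00000134326) lies beside it from 6840570 to 6866635 on the minus strand. The start sites of their MANE transcripts, the reference transcript agreed for each gene, are 11.9 kb apart and point away from each other. Further annotated starts of RSAD2 lie inside CMPK2, so the exons of both genes, over all their transcripts, share 351 bases, which is 6.2% of the exon bases of RSAD2 and 8.0% of those of CMPK2. PNPT1 (ENSG00000138035) is on the same chromosome from 55634061 to 55693863, and SAMHD1 (ENSG00000101347) is on chromosome 20 from 36890229 to 36951893, both on the minus strand. The MANE transcripts have 6 exons for RSAD2, 5 for CMPK2, 16 for SAMHD1 and 28 for PNPT1.

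The members are known interferon-induced genes. Their promoter windows were searched for the core letters of the elements through which interferon signalling is known to act. Each window ran from 250 bases before to 50 bases after an annotated start in the RefSeq promoter table (GRCh38.p14), and both strands were read. The core of the interferon-stimulated response element (ISRE) was searched as GAAANNGAAA, that of the interferon regulatory factor (IRF) site as AANNGAAA and that of the gamma-activated site (GAS) as TTCNNNGAA. Every ISRE match also holds an IRF match. Among 34943 windows of the same length, 3.57% held the ISRE core, 22.9% the IRF core and 7.66% the GAS core. The stretches with matches are shown because the members differ in them, with the ISRE or IRF letters in capitals and 5′ to 3′ on the strand named.

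RSAD2 had 1 ISRE core before its MANE start, at positions -145 to -136 from the start and on the opposite strand, and a separate IRF core closer to the start. The stretches are chr2:6877622-6877651 and chr2:6877642-6877671, both on the plus strand.
RSAD2 ISRE core: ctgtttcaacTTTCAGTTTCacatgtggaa
RSAD2 IRF core: acatgtggaaaAATCGAAActctaactcag

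Where both genes overlap, in the window of the upstream start of RSAD2 and near the innermost start of CMPK2, 4 IRF cores with the same 8 letters followed each other. The stretch around the first is chr2:6865723-6865752, those around the next are chr2:6865757-6865786 and chr2:6865791-6865820, and that around the last is chr2:6865815-6865844, all on the plus strand. The positions in the labels below are the first base of each stretch, not of the core. The last 2 of them were also the only matches in the window of that CMPK2 start, read from the other strand.
RSAD2 and CMPK2, IRF core from 6865723: ccccgcctcggAAACGAAAcctggcgggag
RSAD2 and CMPK2, IRF core from 6865757: gcgccggcgggAAACGAAAcccggagggag
RSAD2 and CMPK2, IRF core from 6865791: gcgccagcgggAAACGAAAgcgaagcgttg
RSAD2 and CMPK2, IRF core from 6865815: gcgttgcggggAAACGAAAgccggaggccc

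PNPT1 had 2 IRF cores, at positions -98 to -91 and -64 to -57 from its start, at chr2:55693894-55694013 on the minus strand. Its window also held 1 GAS core at positions -118 to -110.
PNPT1: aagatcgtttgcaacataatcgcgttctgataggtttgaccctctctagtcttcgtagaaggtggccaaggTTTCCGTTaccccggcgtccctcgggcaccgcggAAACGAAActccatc

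The windows at the MANE start of CMPK2, at its outermost start and at the start of SAMHD1 held none of the 3 cores. The MANE start of CMPK2 is at 6865907 and its window ended at 6865858, just before the last of the 4 IRF stretches (6865815-6865844). All 4 stretches lay beyond that start and outside its window, so the absence there depends on the window length. Within the windows searched, the members were unlike in these letters. A match or its absence says nothing about binding in these cells.

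**Figure D1:**
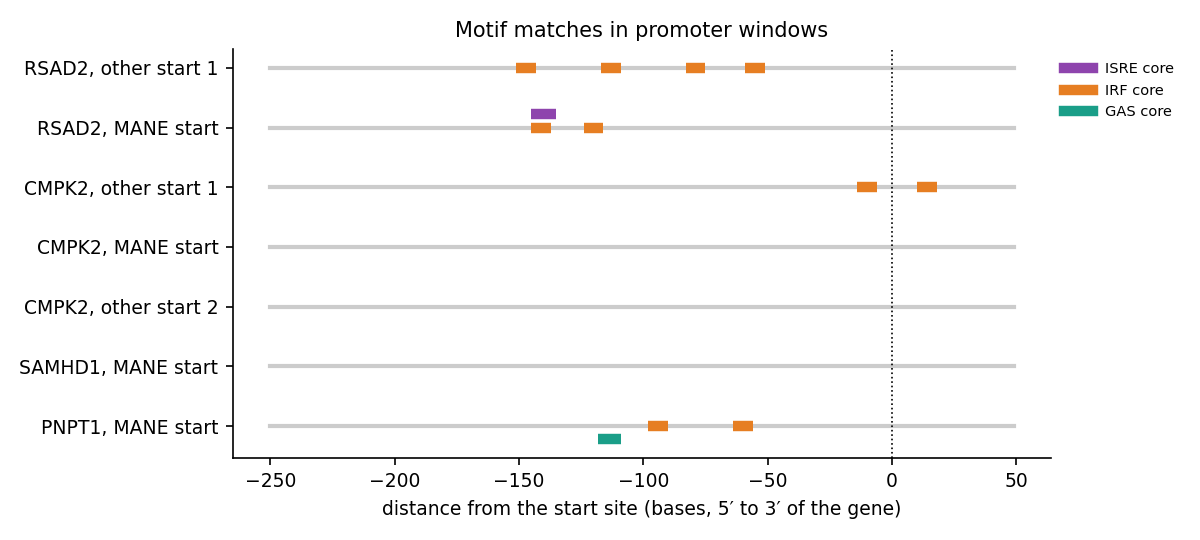
Matches of the 3 core motifs in the promoter windows of RSAD2, CMPK2, SAMHD1 and PNPT1. The horizontal axis gives the distance in bases from the annotated start (dotted line), each grey line is 1 window and each coloured block is 1 match on either strand. The window of the upstream RSAD2 start holds 4 IRF cores, and those of SAMHD1 and of the MANE start of CMPK2 hold none. The window of the MANE start of CMPK2 ends shortly before those 4 cores.

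The target of the siRNA, ALDOA, had 283, 305 and 280 CPM (counts as a rate of the library total, scaled by TMM normalization) with siALDOA and 592, 637 and 668 CPM with siControl. Library totals were between 27277538 and 28690395 counts with siALDOA and between 31899091 and 33237914 with siControl. Ribosomal RNA genes took 13.1% of the counts in siALDOA replicate 1 against 7.71% and 8.11% in the other siALDOA libraries, and 17.4%, 15.3% and 8.15% in siControl replicates 1, 2 and 3. Of 10 colon epithelium markers, 9 were expressed, with a summed level of 8388 to 8623 CPM with siALDOA and 9198 to 9663 CPM with siControl, and LGALS4 was at 0 throughout. KRT8 (means of 5093 CPM with siALDOA and 5595 CPM with siControl) and KRT18 (1910 and 2320 CPM) made up most of that sum and of its difference. Of the 9 genes, 7 had a log2 fold change below 0, while EPCAM had 0.13 and CDH17 0.36. KRT18, a keratin of simple epithelia, was the 1 marker of that list past the threshold and was lower with siALDOA (log2 fold change -0.28, adjusted p = 0.015, edgeR). Of 10 leukocyte markers, 2 passed the filter on low counts, with summed levels of all 10 of 16.7 to 17.9 CPM with siALDOA and 13.0 to 15.2 CPM with siControl, while TYROBP, LST1, AIF1 and CD3E had no count in any library. CD14 made up most of that sum and was higher with siALDOA (log2 fold change 0.32, adjusted p = 0.048, edgeR), while ITGAM, the other one tested, had a log2 fold change of -0.74 (SE 0.48) and was not past the threshold. The part of these markers in the results below was not tested. Of 6 fibroblast markers, 2 passed the filter, with sums of 3.16 to 4.33 CPM and 3.05 to 4.46 CPM, and COL1A2 was at 0. In bulk RNA, more cells that express a gene and more mRNA per cell cannot be told apart.

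RSAD2, which makes the chain-terminating nucleotide, was the member with the largest difference. Its level was 81.3, 105 and 112 CPM in siALDOA replicates 1, 2 and 3, and 18.0, 22.4 and 19.3 CPM in the siControl replicates. The lowest siALDOA library thus stood well above the highest siControl library. This gave means of 99.3 ± 16.0 and 19.9 ± 2.26 CPM (SD, n = 3 each). The log2 fold change was 2.32 (standard error, SE, 0.10), or 4.99-fold, rank 3 from the top of the 15307 genes. Read counts were 2264 to 3177 per siALDOA library and 562 to 684 per siControl library.

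CMPK2, its neighbour, had 99.5, 137 and 147 CPM with siALDOA and 39.9, 48.5 and 46.1 CPM with siControl. Again the groups did not overlap, and replicate 1 was the lowest library in each group. The means were 128 ± 24.9 and 44.8 ± 4.40 CPM (SD, n = 3 each), and the fitted log2 fold change was 1.51 (SE 0.11) or 2.85-fold. CMPK2 varied most among the siALDOA libraries, with a coefficient of variation of 19.5% against 9.82% among the siControl libraries.

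SAMHD1, the deoxynucleotide triphosphohydrolase, was the most abundant member in CPM. Its levels were 242, 285 and 268 CPM with siALDOA and 118, 122 and 107 CPM with siControl. No siALDOA library came near a siControl library, and the replicates were closer to each other than for CMPK2, with a coefficient of variation of 8.15% and 6.97%. The log2 fold change was 1.19 (SE 0.07), or 2.29-fold, from means of 265 ± 21.6 and 116 ± 8.07 CPM (SD, n = 3 each).

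PNPT1, the mitochondrial polynucleotide phosphorylase, had the smallest difference. It was at 77.1, 103 and 94.2 CPM with siALDOA and at 51.8, 55.8 and 55.4 CPM with siControl. Here too every siALDOA library lay above every siControl library, although siALDOA replicate 1 came closest to the siControl range. Group means were 91.5 ± 13.2 and 54.3 ± 2.19 CPM (SD, n = 3 each), and the log2 fold change was 0.75 (SE 0.08) or 1.68-fold.

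**Figure D2:**
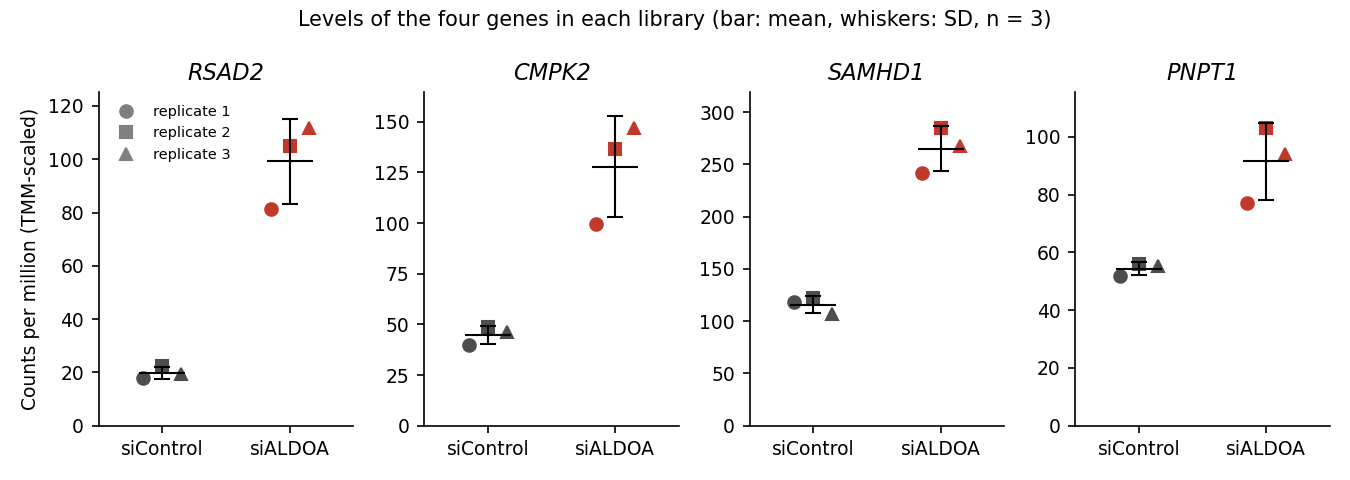
Level of each member in each library, in TMM-scaled CPM on a linear axis from 0. Points are single libraries with a shape for each replicate, the long bar is the group mean and the whiskers are the SD of 3 libraries. All siALDOA points sit above all siControl points for the 4 genes, and siALDOA replicate 1 is the lowest siALDOA point in each panel.

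All 4 members thus had groups that did not overlap. Over all fitted genes, 13.1% had every siALDOA library above every siControl library, and nothing is read from the comparison of these shares because the members were chosen from this contrast. Replicate 1 was the lowest siALDOA library for all 4 genes, and it was also the siALDOA library with the largest ribosomal RNA share. Without it the log2 fold changes of RSAD2, CMPK2, SAMHD1 and PNPT1 were 2.44, 1.66, 1.255 and 0.86, for each of them the highest value among the 6 fits that left out 1 library. The part of the ribosomal RNA share in this was not tested.

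The members were not raised by the same factor. Measured from the siControl mean on the log2 scale, the siALDOA libraries lay between 2.03 and 2.49 for RSAD2, 1.15 and 1.72 for CMPK2, 1.07 and 1.30 for SAMHD1, and 0.50 and 0.92 for PNPT1. The ranges of CMPK2 and SAMHD1 overlapped, while RSAD2 lay above and PNPT1 below all others.

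Ratios of read counts within a library show the same without any scaling between libraries. RSAD2 reached 0.817, 0.767 and 0.761 counts per count of CMPK2 in the siALDOA libraries, but 0.451, 0.463 and 0.418 in the siControl libraries. The means of this ratio were 0.782 ± 0.031 and 0.444 ± 0.023 (SD, n = 3 each), so the neighbours changed unequally and each ratio varied little between replicates. RSAD2 passed from 0.366 ± 0.031 counts per count of PNPT1 with siControl to 1.09 ± 0.090 with siALDOA (SD, n = 3 each), from well below that gene to about its level in counts. The ratio of CMPK2 to SAMHD1 overlapped between the groups, at 0.411 to 0.549 with siALDOA and 0.338 to 0.431 with siControl. For the remaining 3 pairs the ratios did not overlap, with means of 0.374 and 0.172 for RSAD2 to SAMHD1, 1.39 and 0.824 for CMPK2 to PNPT1, and 2.92 and 2.13 for SAMHD1 to PNPT1.

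**Figure D3:**
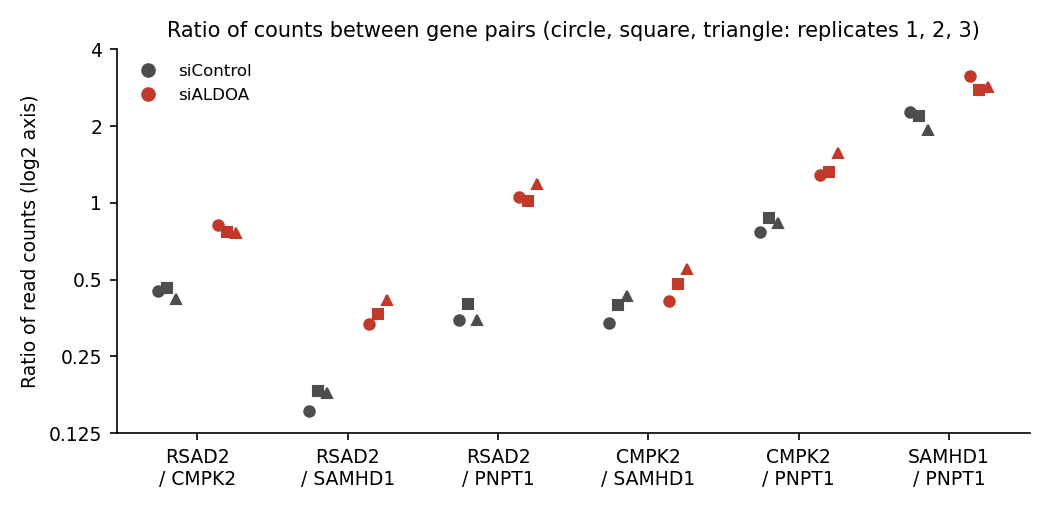
Ratio of read counts between each pair of members in each library, on a log2 axis. Each point is 1 library (circle, square and triangle for replicates 1, 2 and 3), grey for siControl and red for siALDOA. The groups overlap only for CMPK2 to SAMHD1.

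Levels can be compared between genes only per transcript length. Per kilobase of MANE transcript, the order with siControl was SAMHD1 at 24.9 ± 1.74, CMPK2 at 14.5 ± 1.42, PNPT1 at 11.9 ± 0.48 and RSAD2 at 5.84 ± 0.66 CPM per kb (SD, n = 3 each). The ranges of the 4 genes did not overlap in that group, and CMPK2 and PNPT1 came closest, at 12.9 and 12.3 CPM per kb. With siALDOA, SAMHD1 was at 57.0 ± 4.64, CMPK2 at 41.3 ± 8.06, RSAD2 at 29.2 ± 4.69 and PNPT1 at 20.1 ± 2.91 CPM per kb (SD, n = 3 each). On this length RSAD2 stood last with siControl and above PNPT1 with siALDOA. The ranges of RSAD2 and CMPK2 touched with siALDOA (up to 32.8 and from 32.2 CPM per kb), but within each library RSAD2 was below CMPK2. The order depended on the transcripts taken as the length. With the exons of all transcripts, SAMHD1, PNPT1 and CMPK2 were close with siControl, at 10.7, 10.3 and 10.2 CPM per kb, and RSAD2 was at 3.52 CPM per kb. On that length CMPK2 came first with siALDOA, at 29.1 ± 5.68 CPM per kb, and SAMHD1 followed at 24.5 ± 1.99 CPM per kb, with overlapping ranges (SD, n = 3 each). RSAD2 at 17.6 ± 2.82 and PNPT1 at 17.3 ± 2.50 CPM per kb (SD, n = 3 each) then did not differ beyond their spread, so the place of RSAD2 above PNPT1 held for the MANE length alone.

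The genes whose profile over the 6 libraries was most like each member were found by the root mean square difference (RMSD) of the log2 CPM, each gene centred on its own mean, among 13723 genes that averaged 1 CPM or more. For RSAD2 these were TRIM22 (RMSD 0.152), IFITM1 (0.191), ZBP1 (0.266), IFIT1 (0.285) and SLC15A3 (0.285). CMPK2 was nearest to OASL (0.067), OAS2 (0.075), IFIT2 (0.079), SAMD9L (0.087) and EPSTI1 (0.088). SAMHD1 was nearest to OAS1 (0.049), ANXA6 (0.053), IFIH1 (0.058), DDX58 (0.069) and OAS3 (0.072). PNPT1 was nearest to LGALS9 (0.047), SHFL (0.047), STAT2 (0.057), LY6E (0.059) and RNF213 (0.063). The 4 lists shared no gene, and the RMSD values were largest for RSAD2. This distance keeps the size of the group difference, so it mostly ranks genes by closeness in fold change. The members were chosen from that contrast, so nothing is read from the separate lists or the larger distances. By Pearson r, the companions of RSAD2 lay between 0.977 (ZBP1) and 0.9987 (IFIT1). Those of CMPK2 lay between 0.9946 and 0.9968, of SAMHD1 between 0.9934 and 0.9986, and of PNPT1 between 0.9881 and 0.9965. These values describe 6 libraries in 2 groups.

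The neighbours on the chromosome were read next, taking the 5 nearest listed genes on each side of each member. With the members themselves left out, there were 30 such genes. Of these, 15 had enough counts to be tested and 14 had no count in any library. With siALDOA, 1 was higher and 1 was lower at an adjusted p < 0.05 (edgeR's quasi-likelihood F-test with Benjamini-Hochberg adjustment). Over all tested genes, 4.36% were higher and 5.29% were lower at that threshold.

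The higher neighbour was TLDC2, which overlaps SAMHD1 on the opposite strand. Its counts were 870, 1114 and 881 in the siALDOA libraries against 414, 435 and 477 in the siControl libraries, or 33.1 ± 3.43 and 14.0 ± 0.64 CPM (SD, n = 3 each). The log2 fold change of TLDC2 was 1.24 (SE 0.09, adjusted p = 1.19e-08, edgeR), next to 1.19 for SAMHD1. Both genes share 1068 exon bases, 41.8% of those of TLDC2 and 9.86% of those of SAMHD1, and of these 205 lie in the MANE transcript of SAMHD1. In each library the TLDC2 counts amounted to 11.2% to 13.6% of the SAMHD1 counts, with siALDOA between 11.6% and 13.0%. Since the strand setting of the counting was not stated, reads of the shared bases cannot be told apart, and how much of the TLDC2 count came from SAMHD1 was not tested. The same limit holds for the bases shared by RSAD2 and CMPK2, where the ratio between the genes changed.

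Around RSAD2 and CMPK2, the lncRNA NRIR, 89 bases beyond the end of CMPK2, was counted 3, 4 and 4 times in the siALDOA libraries and 0, 1 and 1 times in the siControl libraries, too few to test. RNF144A, a ubiquitin ligase gene 19.2 kb beyond RSAD2, was counted 57, 73 and 76 times with siALDOA and 32, 57 and 31 times with siControl. Its log2 fold change of 0.90 (SE 0.31) did not pass the threshold (adjusted p = 0.069, edgeR), although it did without siControl replicate 2, the control library with its highest count, at an adjusted p of 0.032. DESeq2, library totals as the only scaling, no filter on low counts and the replicate block also brought it past the threshold, and the adjusted p ran from 0.025 to 0.26 over all 14 alternatives. Beside PNPT1, PPP4R3B, a phosphatase subunit gene, had a log2 fold change of -0.04 (SE 0.06), which turned to 0.03 with library totals as the only scaling. CFAP36, a cilia gene 89.0 kb away, was the lower neighbour, with 7.80 CPM against 12.5 CPM and a log2 fold change of -0.68 (SE 0.12, adjusted p = 0.00056, edgeR). RBL1, a pocket protein gene on the far side of SAMHD1, had a log2 fold change of 0.19 (SE 0.10), not past the threshold.

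**Figure D4:**
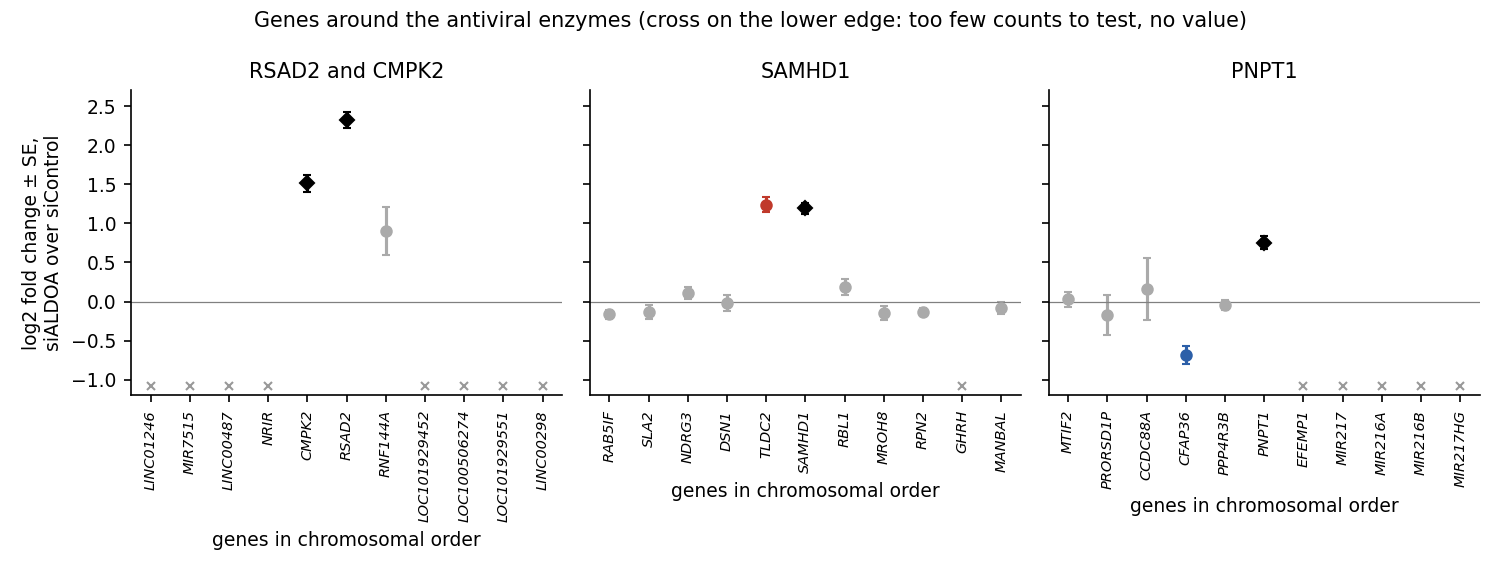
Log2 fold change (siALDOA over siControl) with its standard error for the members (black diamonds) and the listed genes around them, in chromosomal order. Red and blue circles passed an adjusted p < 0.05 as higher and lower, grey circles did not, and crosses on the lower edge are genes with too few counts and no value. TLDC2 stands at the height of SAMHD1, and the other tested genes around SAMHD1 lie near 0.

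To see the members beside the pathways they belong to, 119 genes in 10 lists were read, from nucleotide kinases to the RNA exosome, none of them a member. Of 118 tested genes 7 were higher and 6 were lower with siALDOA at an adjusted p < 0.05. Their log2 fold changes ran from -0.60 to 0.54 with a median of -0.03, against a median of 0.00 over all tested genes. The lower end was ADA, with only 9 to 27 counts per library (SE 0.47) and not past the threshold. The lowest gene past the threshold was TK2 with -0.37. The shares of all tested genes called were 4.36% higher and 5.29% lower, as above. At an unadjusted p under 0.05, a looser count given below for lists with few calls, 11.3% of all tested genes were higher and 12.3% were lower.

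The nucleotide kinases, to which CMPK2 belongs, held 1 higher and 3 lower genes of 16, and the median of their log2 fold changes was -0.07. The cytosolic relative of CMPK2, CMPK1, was at 303 ± 33.0 CPM with siALDOA and 259 ± 11.6 CPM with siControl (SD, n = 3 each), a log2 fold change of 0.23 (SE 0.07, adjusted p = 0.040, edgeR). This call was lost without siALDOA replicate 1 and without each siControl replicate, with adjusted p of up to 0.20. CMPK1 was at 341 CPM in siALDOA replicate 1 and at 283 and 286 CPM in the other siALDOA libraries, and without that library its log2 fold change was 0.13. DTYMK, the thymidylate kinase, had 0.15 (SE 0.09), not past the threshold, with 0.085 without siControl replicate 1 and 0.24 without siControl replicate 3. AK3, a mitochondrial adenylate kinase, fell, with a log2 fold change of -0.34 (adjusted p = 0.0020, edgeR), and its call held in all 14 alternatives. UCK2, a uridine-cytidine kinase, and GUK1, the guanylate kinase, fell with -0.30 and -0.28. The calls of UCK2 and GUK1 were both lost with library totals as the only scaling and without siControl replicate 3, and that of UCK2 also without siALDOA replicate 3 or siControl replicate 2. Their adjusted p reached 0.11 for UCK2 and 0.13 for GUK1.

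The enzymes that remove phosphates, which oppose the kinases, held 2 higher and 0 lower genes of 9 tested. NT5C3A, a pyrimidine 5′-nucleotidase that dephosphorylates CMP and UMP, the substrates of CMPK2, rose from 58.4 ± 2.10 to 85.1 ± 4.22 CPM (SD, n = 3 each). Its log2 fold change of 0.54 (SE 0.06, adjusted p = 6.94e-06, edgeR) was the highest of the 118 genes, and its call held in all 14 alternatives. NT5E, the ectonucleotidase CD73, rose with a log2 fold change of 0.44 (SE 0.06, adjusted p = 8.57e-05, edgeR). For lower genes in this list the count at an unadjusted p under 0.05 was 2 of 9 (12.3% of all tested genes were lower by that measure), and DESeq2 and limma-voom called 0.

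Deoxynucleotide synthesis, which fills the pool that SAMHD1 empties, held 1 higher and 0 lower genes of 8. This list also holds DCTPP1 and DUT, which hydrolyse dCTP and dUTP. RRM2, a ribonucleotide reductase subunit, had 0.19 (adjusted p = 0.045, edgeR), a call lost without a filter on low counts and without any single library but siALDOA replicate 1, with adjusted p of up to 0.16. At an unadjusted p under 0.05 this list had 2 higher and 2 lower genes of 8, against 11.3% and 12.3% of all tested genes. DCTPP1 was among the lower ones, and DESeq2 and limma-voom called 1 and 0. Salvage held 1 higher and 1 lower gene of 12, the thymidine kinases TK1 of the cytosol with 0.25 (adjusted p = 0.016, edgeR) and TK2 of mitochondria with -0.37 (adjusted p = 0.0098, edgeR). De novo synthesis held 1 of each among 18, the GMP synthetase gene GMPS with 0.21 (adjusted p = 0.033, edgeR) and IMPDH1 with -0.32 (adjusted p = 0.0050, edgeR), which act in succession towards GMP. The call of TK1 was lost without siALDOA replicate 2 or 3 and without siControl replicate 1 or 3 (adjusted p of up to 0.090), and that of GMPS with any library left out (up to 0.16). The calls of TK2 and IMPDH1 were lost in 1 of 14 alternatives, with library totals as the only scaling (adjusted p = 0.084 and 0.087, edgeR).

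The kinases and phosphatase subunits that set the phosphorylation of SAMHD1 held no gene past the threshold among 6. Their log2 fold changes lay between -0.12 and 0.19, and at an unadjusted p under 0.05 there were 2 higher genes and 1 lower gene of 6, against 11.3% and 12.3% of all tested genes. DESeq2 and limma-voom called 0.

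The radical S-adenosylmethionine enzymes, the family of RSAD2, held no gene past the threshold among 8 in edgeR, DESeq2 or limma-voom, and also 0 at an unadjusted p under 0.05. RSAD1, its namesake, had -0.11 (SE 0.07), and -0.034 with library totals as the only scaling. Of 9 factors of cytosolic iron-sulfur assembly, which supplies such enzymes with clusters, MMS19 was higher with 0.24 (adjusted p = 0.019, edgeR), a call lost without siControl replicate 1 or 2 (adjusted p of up to 0.082). No gene of that list was lower, also at an unadjusted p under 0.05 and with DESeq2 and limma-voom.

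Mitochondrial RNA processing and decay, where PNPT1 acts, held 0 higher genes and 1 lower gene of 19. Its helicase partner SUPV3L1 had -0.01 (SE 0.09) and the poly(A) polymerase MTPAP -0.07 (SE 0.09), neither past the threshold. TFB2M, a mitochondrial transcription factor, was lower with -0.33 (adjusted p = 0.019, edgeR), a call lost with library totals as the only scaling and without siALDOA replicate 1 or 3 or siControl replicate 1 (adjusted p of up to 0.13). At an unadjusted p under 0.05 there were 0 higher and 4 lower genes of 19, against 11.3% and 12.3% of all tested genes, and DESeq2 and limma-voom each called 0 and 1. The RNA exosome, whose core subunits resemble PNPT1, held 0 calls among 13 in all 3 tools, with 0 higher and 2 lower genes at an unadjusted p under 0.05. The subunits with the RNase PH fold shared with PNPT1, EXOSC4 to EXOSC9, had log2 fold changes from -0.23 (EXOSC5) to 0.10 (EXOSC7). Neither passed the threshold, and these ends moved to -0.14 for EXOSC5 without siALDOA replicate 1 and to 0.023 for EXOSC7 without siControl replicate 1.

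**Figure D5:**
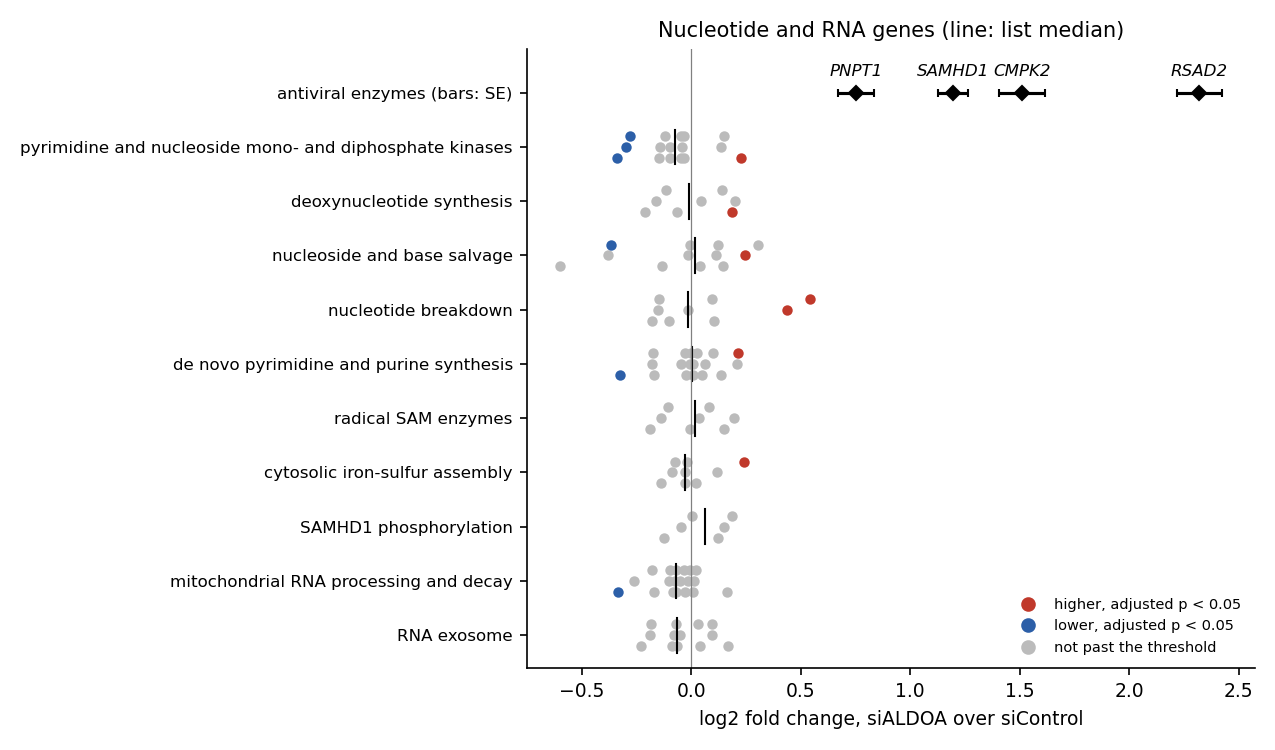
Log2 fold change (siALDOA over siControl) of the 4 members (black diamonds, bars are standard errors) and of the 118 tested genes in 10 lists, 1 point per gene. Red and blue points passed an adjusted p < 0.05 as higher and lower, grey points did not, and the black line is the list median. The list genes lie between -0.60 (ADA, at 9 to 27 counts per library and not past the threshold) and 0.54. The members were chosen for being higher, so their place to the right is no result.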

How the data were processed

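RNA-Seq of 6 libraries of HT29 cells was read from count files, 1 per library. Alignment by the authors used TopHat2 on hg38, and gfold then gave the deposited values, raw counts per gene symbol without normalization. Which annotation and strand setting were used, and how multiply matching reads were treated, is not given in the sources used here. Copies of ribosomal RNA genes carried identical counts, so such reads may have been counted on each copy.

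Counts were tested in R 4.3.3 with edgeR 4.0.16 (filterByExpr, TMM normalization, quasi-likelihood F-test, Benjamini-Hochberg adjustment over 15307 genes, threshold 0.05). SE values were computed as log2 fold change over the root of F, and log2 CPM used a prior count of 2. All 6 libraries entered without a covariate. Nothing beyond the label of biological replicate is stated on their origin, so p-values measure the spread between these libraries. No pair within a group agreed within sampling noise (chi-square per degree of freedom 5.10 to 92.1). This value included the ribosomal RNA genes and was scaled by summed counts alone, without TMM. It was largest for siControl replicates 1 and 3, with ribosomal RNA shares of 17.4% and 8.15%. The smallest value was that of siALDOA replicates 2 and 3, with 7.71% and 8.11%. Agreement without the ribosomal RNA genes was not tested.

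Alternatives were DESeq2 1.42.0, its size factors in edgeR, limma-voom (limma 3.58.1), library totals only, no filter, at least 10 counts in every library, leaving out ribosomal RNA genes, a replicate block, each library left out and, for counts of genes, the unadjusted P < 0.01 of the study. Positions come from GENCODE release 44 and promoter windows from RefSeq. Figures used matplotlib 3.10.9.

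The members and the lists were chosen with earlier results of these data known. Genes were named by rule: the members, ALDOA, the closest relatives CMPK1, DTYMK, RSAD1 and EXOSC4 to EXOSC9, the 5 nearest listed genes on each side, up to 6 genes per list at an adjusted p < 0.05, and the 5 genes of most similar profile. SUPV3L1, MTPAP, ADA, DCTPP1, DUT and single marker genes were named after their values were seen.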

Additional observations from a re-analysis of the deposited data

How the results depend on the processing

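The members kept their direction in all 14 alternatives, with log2 fold changes between 2.225 and 2.44 for RSAD2, 1.40 and 1.66 for CMPK2, 1.14 and 1.27 for SAMHD1, and 0.66 and 0.86 for PNPT1. With library totals as the only scaling the median of all genes was 0.075, 1 list gene and 279 genes in all were lower, against 6 and 810, and 896 genes were higher. Under that scaling EXOSC4 turned to 0.0028 and PPP4R3B to 0.031, and with each library left out EXOSC4 ran from -0.13 to 0.032, above 0 without siControl replicate 3. With each library left out in turn, 2 to 6 list genes were higher, against 7, and 4 to 6 were lower, while over all genes 359 to 644 were higher and 471 to 790 lower. The lowest counts came without siControl replicate 2 (359 higher and 490 lower) and siControl replicate 3 (363 and 471). The cause was not tested.

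Whether the replicate numbers shared by siALDOA and siControl pair the libraries could not be decided from the deviations from the group means. All their correlations over 15307 genes were small, with 0.035, 0.027 and 0.026 for the same numbers. For unlike numbers they ran from -0.046 to 0.022, and each siALDOA library correlated best with its own number. With the replicate block 987 genes were higher and 1175 lower. With 3 libraries per group and 27277538 to 33237914 counts each, genes at a few counts, such as NRIR, could not be tested.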
